A study of Mus musculus with 20 samples.

Results

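The comparison set E2-10HA cells that stably express a constitutively active, biotin-tagged Notch intracellular domain (wild-type BioNICD) against E2-10HA cells with no Notch construct (CRISPR control). E2-10HA, a mouse T cell hybridoma, is given in the labels as mature T cells. RNA-seq counts were deposited for 20 samples, of which 8 entered the comparison, chosen by their titles: 2 wild-type BioNICD and all 6 CRISPR control replicates. It was repeated with control replicates 1 and 2 alone. The BioNICD cells carry pLXSP-BirA, which supplies the biotin ligase, and pMY-BioNICD-IRES-GFP, and were obtained by histidinol selection and sorting. The control cells carry the empty lentiCRISPRv2 vector and were selected with puromycin. The BioNICD samples and control replicates 1 and 2 are labelled as receiving no treatment, whereas control replicates 3 to 6 have no such label. In replicates 3 to 6 the title and plasmid say control while the description names BioNICD groups, so they were used by title and plasmid. Values from 3 further groups of 2 samples each are given beside the members: the DEP mutant (E2-10HA cells with the same vectors and selection, carrying the BioNICD insert that the labels call DEP mutant), and NICD-ER cells, sorted E2-10HA cells with pMIGRI Flag-NICD-ER IRES GFP, treated for 24 h with ethanol (EtOH) or with 4-hydroxytamoxifen (4-OHT). Vectors and selection differ between BioNICD and control cells, so their part cannot be told apart from that of NICD in this contrast, but they are shared with the DEP mutant. The labels do not say whether replicates are separate cultures, and p-values therefore cover only the spread among the samples at hand, which may be technical.

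Notch is a cell surface receptor that is cleaved when a ligand on a neighbouring cell binds it. The released intracellular domain, NICD, enters the nucleus and joins the DNA-binding protein RBPJ and a Mastermind-like coactivator, which turns on targets such as the repressors Hes1 and Hey1 and the feedback genes Dtx1 and Nrarp. In T cells Notch directs early lineage commitment, contributes to effector differentiation, and is a frequent oncogene of T cell leukaemia.

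Read depth was 48238324 and 23081893 assigned counts in the BioNICD samples and 10704131 to 15440584 in the controls. Each file held 24391 genes, of which 11481 passed the filter on low counts. Per file headers, BioNICD and DEP samples were processed in one folder, control replicates 1 and 2 in another and 3 to 6 in yet another, so processing batch and group cannot be told apart for BioNICD against control. Control replicate 6 stood apart in the ribosomal RNA gene Rn45s and in Lars2, as described among the RNA preparation genes. The T cell identity of both groups was checked on 10 markers, whose summed level was 1734 to 1789 CPM (counts relative to library size, scaled with TMM) in BioNICD and 1343 to 1611 CPM in control samples. Cd3d, a chain of the CD3 complex, had 202 and 212 CPM in BioNICD and 181 to 212 CPM (median 199) in the controls, and Lck, the kinase of the T cell receptor, had 276 and 279 CPM against 161 to 187 CPM (median 181). Cd5, another T cell marker, was at most 0.263 CPM in both groups and under the filter.

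Against all 6 controls, 6608 of 11481 genes tested (57.6%) were called by edgeR's quasi-likelihood test at a Benjamini-Hochberg adjusted p under 0.05. Of these, 3540 (30.8%) were higher and 3068 (26.7%) lower in BioNICD cells. Large changes were mostly increases: 1480 called genes (12.9%) were at least 2-fold higher and 307 (2.67%) at least 2-fold lower. Among the increases, 96 genes had a control mean under 0.1 CPM and a BioNICD mean of at least 5 CPM, and the reverse held for 1 gene, Slc22a3. The values of the 2 BioNICD samples lay wholly outside the range of the 6 controls for 7228 genes (63%). With control replicates 1 and 2 alone, 7666 of 11447 genes (67%) were called, 4045 (35.3%) higher and 3621 (31.6%) lower. In that repeat 1569 called genes (13.7%) were at least 2-fold higher and 347 (3.03%) at least 2-fold lower. In the comparison with all 6 controls, leaving out 1 library at a time gave 4582 to 7014 called genes. With most genes called, a call by itself sets no gene apart, so counts over a list are read against these percentages. Members that passed the filter through their high level in BioNICD had to differ, so counts and medians over lists are descriptions.

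**Figure D1:**
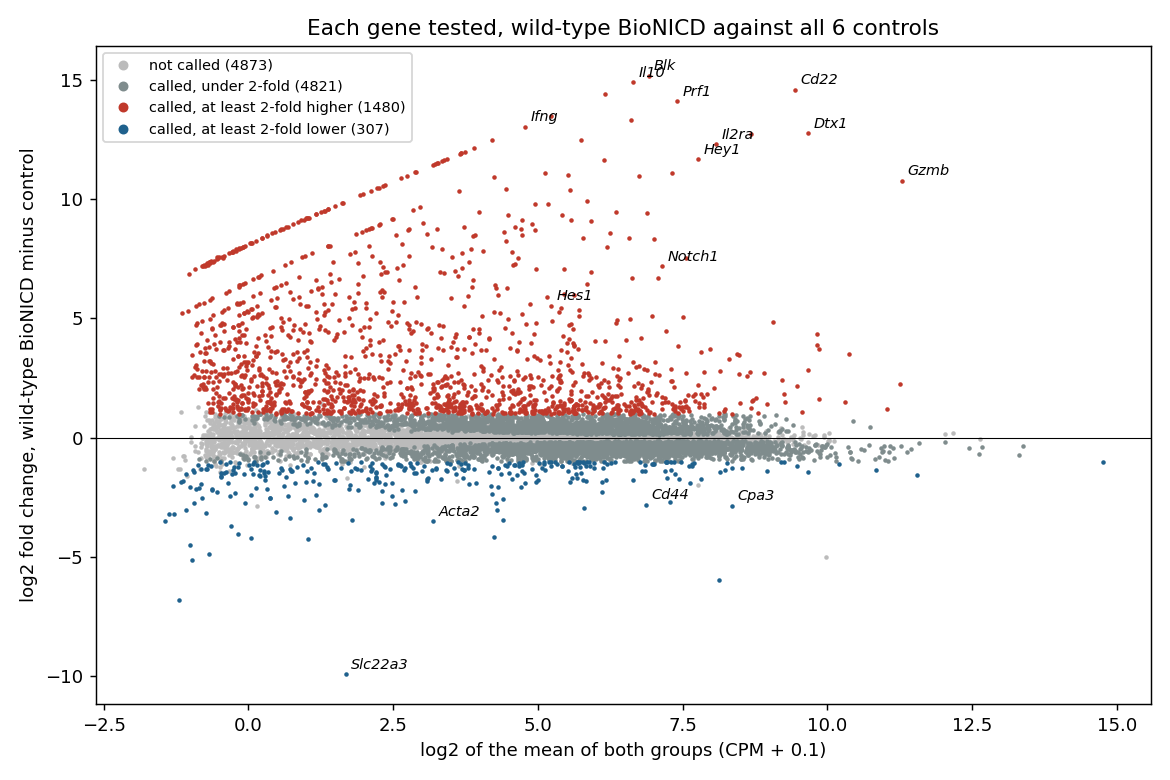
Log2 fold change, wild-type BioNICD minus CRISPR control (y), against log2 of the mean of both group means in CPM plus 0.1 (x), 1 point for each of 11481 genes tested. Coloured points are called genes at least 2-fold higher (1480) or lower (307); the larger changes lie above zero, and fitted values of genes with no control read depend on the prior count and are no measure of size.

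The Notch1 gene itself (mm9 chr2:26313422-26359342, 34 exons) checked the label. It had 290.0 and 274 CPM in the BioNICD samples and 0.913 to 2.75 CPM (median 1.94) in the controls. Both BioNICD samples were above every control, with a log2 fold change of 7.19 (adjusted p = 6.96e-10, SE 0.166). In the DEP mutant it had 658 and 628 CPM, above the wild-type line, and the log2 difference wild type minus DEP was -1.17 (adjusted p = 1.42e-04, SE 0.156). Counts of transcripts from the introduced construct and from the endogenous gene cannot be told apart here. Rbpj, the DNA-binding partner of NICD, had 36.5 and 37.0 CPM against 33.3 to 39.0 CPM (median 35.6) in the controls and was not called, with a log2 fold change of 0.04 (adjusted p = 0.685, SE 0.0748).

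Dtx1 and Hey1, the genes given as marks of active Notch, were near zero in controls and high in BioNICD cells. Dtx1, a ubiquitin ligase of the Deltex family that feeds back on Notch (mm9 chr5:121130273-121161678, 10 exons), had 1643 and 1615 CPM in BioNICD samples and 0 to 0.412 CPM (median 0.215) in the controls. Its log2 fold change was 12.77 (adjusted p = 1.83e-11, SE 0.171). Hey1, a basic helix-loop-helix repressor and direct Notch target (mm9 chr3:8663359-8667038, 5 exons), had 435 and 433 CPM against 0 to 0.263 CPM (median 0.104), a log2 fold change of 11.68 (adjusted p = 3.66e-11, SE 0.174). The values of neither gene overlapped between the groups. In the DEP mutant, with the same vectors, Dtx1 had 1.59 and 1.83 CPM, above every control, and Hey1 0.236 and 0.705 CPM, of which the lower value lay within the control range. Both were far below the wild-type line. These are bulk values, so more cells with a transcript and more transcript per cell cannot be told apart, here and below.

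Other direct targets rose as well, but not uniformly. Hes1, the founding repressor of the Hes family (mm9 chr16:30065443-30067882), had 71.2 and 75.2 CPM in BioNICD and 0.094 to 2.56 CPM (median 1.80) in the controls, a log2 fold change of 5.52 (adjusted p = 2.36e-06, SE 0.404). The controls were split, with 0.094 and 0.0947 CPM in replicates 1 and 2 and 1.69 to 2.56 CPM in replicates 3 to 6. Il2ra, the alpha chain of the interleukin-2 receptor (mm9 chr2:11564419-11614821), had 549.7 and 534 CPM against 0 to 0.189 CPM (median 0.113), a log2 fold change of 12.30 (adjusted p = 5.20e-12, SE 0.134). Nrarp, which promotes turnover of the Notch complex, stayed low, at 2.01 and 1.80 CPM, with 2 reads in all 6 controls together and a pooled ratio of 76.6 (20.8 to 638, 95% counting interval), where the interval covers counting error only. Hes1 and Il2ra were thus separated from every control, and the DEP mutant had 5.84 and 5.35 CPM of Hes1 and 0.472 and 0.282 CPM of Il2ra.

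**Figure D2:**
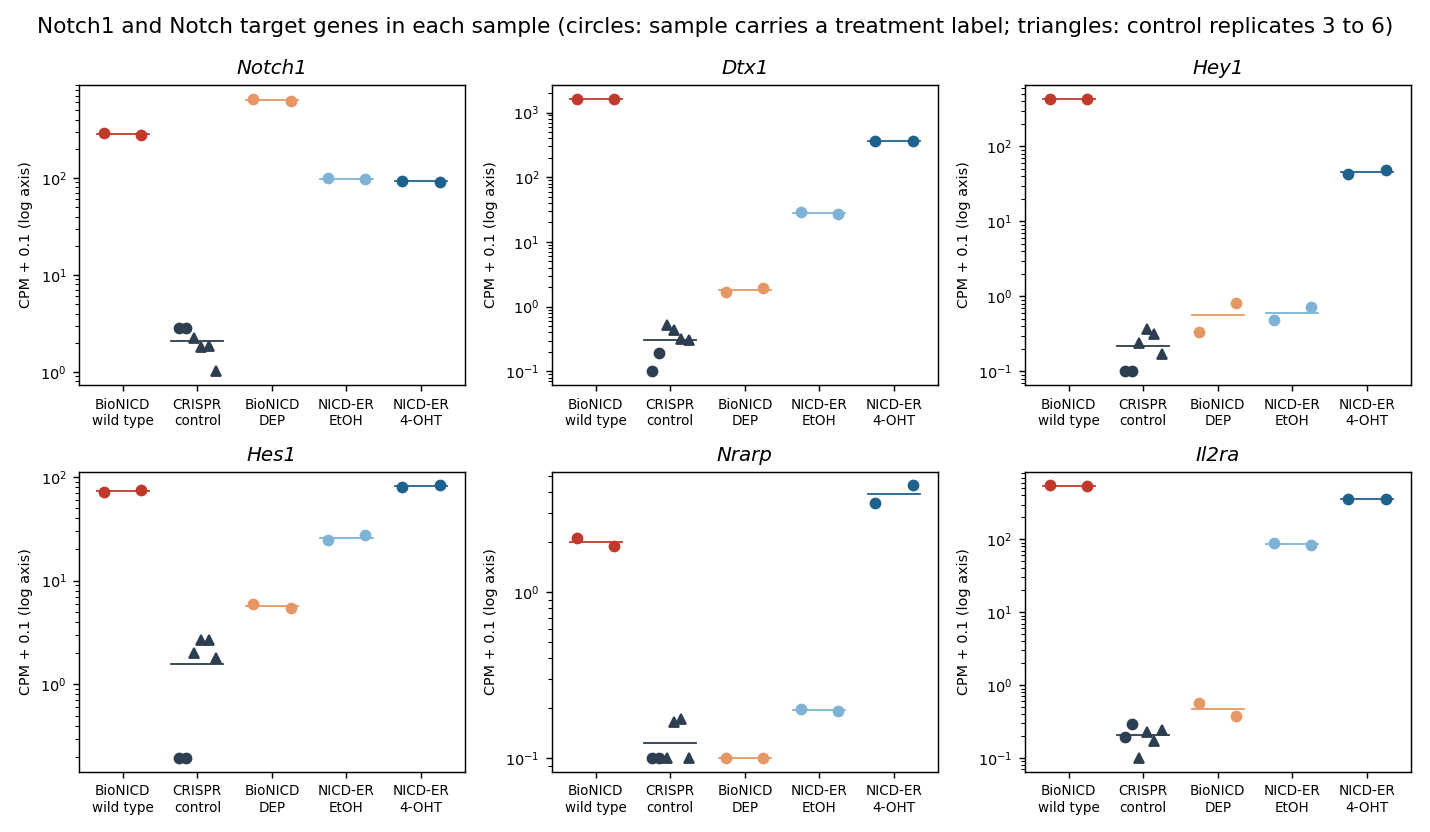
CPM plus 0.1 on a log axis for Notch1, Dtx1, Hey1, Hes1, Nrarp and Il2ra in each sample by group; circles are samples with a treatment label, triangles control replicates 3 to 6, and lines are group means. The 2 wild-type BioNICD samples lie above all 6 controls in each panel, while the DEP mutant is high for Notch1 and low for the targets.

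Of 27 canonical Notch targets, 20 passed the filter, among them Notch1, whose counts cannot be told apart from those of the construct. Of the 20, 13, Notch1 included, were called higher and 1 lower, with a median log2 fold change of 1.29 against 0.01 over all genes tested. Each list median below is of log2 fold changes and stands against that 0.01, a value after rose by is a log2 fold change, and members not counted as higher or lower were not called. Where a list has 0 calls in one direction against all controls, DESeq2 and edgeR at an unadjusted p under 0.05 gave 0 there too, except for 2 lower NF-kB genes at an unadjusted p and 1 higher RNA preparation gene by both. Besides lists where this is given below, the choice of controls changed such zeros. With control replicates 1 and 2 alone, 1 receptor, ligand and Fringe gene, 2 MHC class I genes and 1 NF-kB gene were lower. The same setting gave 2 histone variant genes, 1 ATF4 and unfolded protein response gene and 2 RNA preparation genes higher. With replicates 3 to 6 alone, 2 NF-kB genes were lower, and 2 ATF4 and unfolded protein response genes and 2 RNA preparation genes higher. The other 7 canonical Notch targets, Hes5, Hes7, Hey2, Heyl, Notch3, Ptcra and Igf1r, were under the filter, and Hey2 and Heyl had no count in either group. Hes7, a repressor of the same family as Hes1, had a pooled ratio of 26.2 (6.89 to 223, 95% counting interval). Among the higher ones, Gimap5, a lymphocyte survival GTPase, had a log2 fold change of 3.67 (SE 0.516), with 0 and 0 CPM in control replicates 1 and 2 and 1.10 to 1.97 CPM in replicates 3 to 6, and Tbx21, which encodes the T helper 1 factor T-bet, one of 2.42 (SE 0.198). Dtx4, another Deltex gene, gave 2.35 (SE 0.284), and the repressor gene Bhlhe40 gave 1.42 (SE 0.108). Smaller increases were measured for the CDK inhibitor gene Cdkn1a, at 1.15 (SE 0.0573), the Fringe glycosyltransferase gene Lfng, at 0.94 (SE 0.11), and the cyclin gene Ccnd3, at 0.45 (SE 0.0551).

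Myc, a growth-promoting factor and a known Notch target in T cell leukaemia, was lower instead. It had 132 and 128 CPM in BioNICD and 147 to 204 CPM (median 194) in the controls. Its log2 fold change was -0.48 (adjusted p = 0.0102, SE 0.13), and the adjusted p was 0.0639 without BioNICD replicate 1 and 0.0785 without replicate 2. With control replicates 1 and 2 alone, which had 147 and 154 CPM against 194 to 204 CPM in replicates 3 to 6, it was -0.20. Ccnd1, Gata3 and Hes6 were not called. The T cell factor gene Tcf7 and the survival gene Bcl2 were not called either, at -0.26 (adjusted p = 0.446, SE 0.275) and -0.49 (adjusted p = 0.396, SE 0.466), and both turned to the opposite sign with control replicates 1 and 2 alone, at 0.43 and 0.84.

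Receptor, ligand and processing genes had smaller median changes. Of 15 receptor, ligand and Fringe genes, 10 passed the filter, 7 were higher and 0 lower (median 0.43). Notch1 and Lfng, already counted as canonical targets, are among the higher ones. Notch2 rose by a log2 fold change of 0.43 (SE 0.054) and the Fringe gene Mfng by 0.44 (SE 0.0753). The ligand genes Jag1 and Jag2 had log2 fold changes of 1.06 (SE 0.309) and 0.90 (SE 0.21), but Jag1 was not called without either BioNICD replicate (adjusted p = 0.159 and 0.053) nor Jag2 without replicate 1 (adjusted p = 0.052), and Jag1 had 1.92 with control replicates 1 and 2 alone. Of 22 cleavage and turnover genes 21 passed, 12 were higher and 1 lower (median 0.44). The 12 include Dtx1 and Dtx4, likewise counted as canonical targets. Furin, the protease that makes the first cut in the Notch receptor, had 643 and 638 CPM against 52.0 to 64.5 CPM (median 55.5) and rose by 3.49 (SE 0.0783). The E3 ligase genes Dtx3l, at 2.89 (SE 0.0635), and Itch, at 0.94 (SE 0.0661), rose too, while Mib1, which promotes ligand endocytosis, was not called.

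The nuclear partners of NICD divided in both directions. Of 27 RBPJ coactivator and corepressor genes 24 passed the filter, 10 were higher and 6 lower (median 0.08). The Mastermind-like coactivator genes Maml1 and Maml3 rose by 0.56 (SE 0.0714) and 1.10 (SE 0.0883). Maml2, with few control reads, had a pooled ratio of 30.3 (10.0 to 150.1, 95% counting interval). Among corepressor genes, Tle3 rose by 1.49 (SE 0.0846) and L3mbtl3 by 0.83 (SE 0.0784), the histone deacetylase gene Hdac2 was lower at -0.41 (SE 0.0587), and Ncor1 was not called.

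The 12 genes ranked highest by fitted log2 fold change under the naming rule were Blk, Il10, Cd22, Crxos, Prf1, Clip4, Rhov, Ifng, Dtx1, Tgm2, Cdh15 and Epas1. Where all controls had no read, the fold is a lower bound against a floor of 3 reads over the 6 controls, and the fitted rank depends on the prior count and is no order of size. Blk, a Src-family kinase best known from B cells, had 242 and 239 CPM, at least 6339.9-fold higher than the controls. Il10, an anti-inflammatory cytokine gene, had 194 and 205 CPM, at least 5202-fold higher. Neither gene had a read in any control, and in the DEP mutant Blk stayed at 0 and 0.047 CPM and Il10 at 0.236 and 0.188 CPM.

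Cd22, a sialic acid-binding inhibitory receptor of B cells, had 1421 and 1372 CPM against 0 to 0.282 CPM (median 0), a log2 fold change of 14.58 (adjusted p = 5.51e-11, SE 0.228). Tgm2, a transglutaminase that crosslinks proteins, had 823 and 813 CPM against 0 to 0.275 CPM (median 0.068), a log2 fold change of 12.74 (adjusted p = 3.54e-11, SE 0.185). Both genes were thus all but silent in every control. Crxos, which lies antisense to the homeobox gene Crx and was counted without strand, had 139 and 146 CPM (at least 3709-fold higher), Clip4, a CAP-Gly domain gene, 73.6 and 76.5 CPM (at least 1961-fold higher), and Cdh15, which encodes M-cadherin, was at least 982-fold higher. Rhov had 192 and 199 CPM and a pooled ratio of 15328 (2751 to 605465, 95% counting interval). Epas1, which encodes the hypoxia factor HIF-2 alpha, had 109 and 106 CPM and a pooled ratio of 8528 (1530.2 to 336891, 95% counting interval).

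For the 12 named decreases the naming rule required a control mean of at least 5 CPM and no overlap between the groups. Slc22a3, an organic cation transporter gene, had no read in either BioNICD sample and 1.33 to 9.84 CPM (median 7.84) in the controls, at least 164-fold lower. The transcript 5830411N06Rik had 8.32 and 9.54 CPM in BioNICD cells, but the controls differed by set, with 1302 and 1231 CPM in replicates 1 and 2 and 193 to 201 CPM in replicates 3 to 6. Cd44, the hyaluronan receptor of activated lymphocytes, had 28.9 and 28.8 CPM against 173 to 261 CPM (median 179), a log2 fold change of -2.81 (adjusted p = 3.17e-06, SE 0.214). Every control was above the BioNICD pair for these 3 genes, which the rule required.

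Acta2, a smooth muscle actin gene, had 1.61 and 1.21 CPM against 13.7 to 20.5 CPM (median 15.8) and a log2 fold change of -3.50 (adjusted p = 1.30e-06, SE 0.236). In the DEP mutant it had 1.83 and 1.41 CPM, near the wild-type line. Ankrd16 behaved alike, with 12.8 and 12.8 CPM in BioNICD, 11.4 and 12.9 CPM in DEP and 90.6 to 109.6 CPM (median 97.6) in control samples, a log2 fold change against control of -2.93 (SE 0.0843). By contrast Cpa3, the mast cell carboxypeptidase gene, had 78.7 and 79.5 CPM in BioNICD, 378 and 381 CPM in DEP and 546 to 631 CPM (median 570.4) in control samples, a log2 fold change of -2.85 (SE 0.0748). Cd44 had 193 and 185 CPM in the DEP mutant, likewise well above the wild-type line. The remaining members were 1500009L16Rik, Bhlhe41, Ahsg, Clec2f, Strip2 and Galnt3, whose log2 fold changes lay between -4.14 and -2.75.

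Most cytotoxic and effector genes tested were far higher in BioNICD cells. Of 26 members 19 passed the filter, 17 were called higher and 0 lower. Their median log2 fold change was 8.01, or 6.06 with the 6 members that had no control read set at their lower bound, against 0.01 over all genes tested. Gzmb, the granule protease granzyme B, had 4959 and 5059.6 CPM in BioNICD and 1.46 to 4.98 CPM (median 2.39) in the controls, a log2 fold change of 10.77 (adjusted p = 1.63e-09, SE 0.285). Prf1, the pore-forming protein perforin, had 346 and 334 CPM with 1 read in all controls, a pooled ratio of 26991 (4844 to 1066130.0, 95% counting interval). Ifng, which encodes interferon gamma, had 52.0 and 57.8 CPM with no control read, at least 1417-fold higher.

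Gzma, granzyme A, was already present in controls at 12.6 to 51.0 CPM (median 44.1) and reached 990.3 and 1063 CPM, a log2 fold change of 4.85 (adjusted p = 6.88e-06, SE 0.413). Gzmg was at least 471-fold higher. Gzmb and Gzmg lie in a cluster of similar granzyme genes, so reads may be divided among them uncertainly. For these effector genes the DEP mutant was far below the wild-type line, with 19.1 and 18.3 CPM of Gzmb, 6.96 and 8.08 CPM of Gzma, 0 and 0.188 CPM of Ifng and 0.059 and 0.0939 CPM of Prf1.

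**Figure D3:**
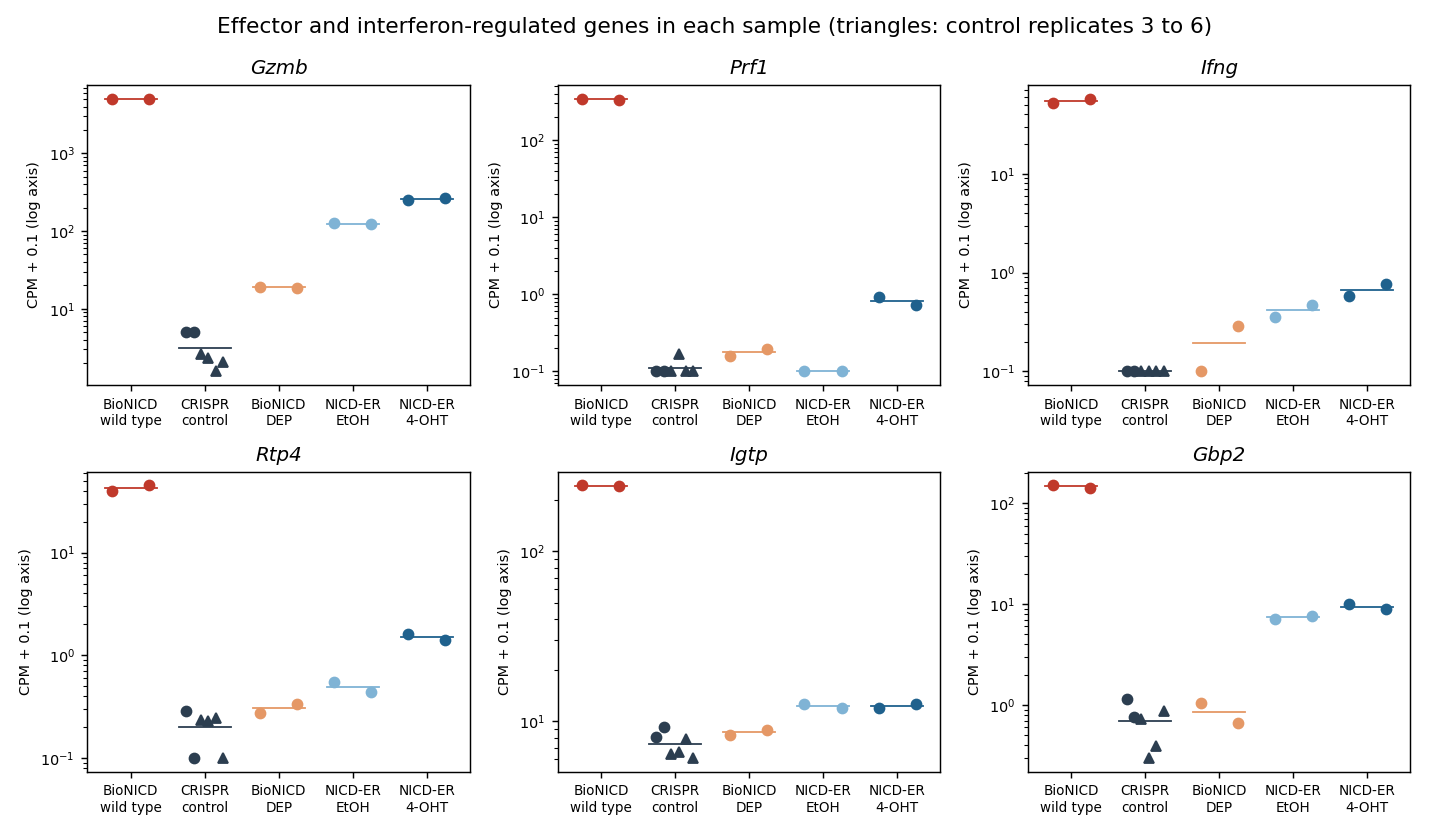
CPM plus 0.1 on a log axis for Gzmb, Prf1, Ifng, Rtp4, Igtp and Gbp2 in each sample by group; circles are samples with a treatment label, triangles control replicates 3 to 6, and lines are group means. Both wild-type BioNICD samples lie above all controls and both DEP samples in each panel.

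Interferon-stimulated genes rose almost without exception. All 32 members passed the filter, 31 were called higher and 0 lower, with a median log2 fold change of 3.61 against 0.01 over all genes tested. Rtp4, an interferon-induced gene of antiviral defence, had 40.0 and 45.0 CPM against 0 to 0.188 CPM (median 0.134), a log2 fold change of 8.63 (adjusted p = 2.51e-09, SE 0.245). Controls and BioNICD samples did not overlap for this gene. Ifi44, at 8.50 (SE 0.31), and the oligoadenylate synthetase genes Oas2, at 7.93 (SE 0.272), and Oas3, at 3.16 (SE 0.157), rose as well, and Oas1a had a pooled ratio of 261 (72.0 to 2164, 95% counting interval). Oas genes are close copies of each other, so their single values are uncertain.

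The interferon-inducible GTPases, which attack the vacuoles of intracellular pathogens, were all raised among those tested. Of 18 members 16 passed the filter and all 16 were called higher by at least 2-fold, with a median log2 fold change of 5.68. Igtp, an immunity-related GTPase of the Irgm class, had 245 and 242 CPM in BioNICD and 5.97 to 9.19 CPM (median 7.13) in the controls, a log2 fold change of 5.09 (adjusted p = 3.85e-10, SE 0.108). Gbp2, a guanylate-binding protein, had 150.3 and 143 CPM against 0.197 to 1.03 CPM (median 0.641), a log2 fold change of 7.99 (adjusted p = 9.21e-10, SE 0.194). The BioNICD samples were above every control for both, and the DEP mutant had 8.20 and 8.83 CPM of Igtp and 0.944 and 0.564 CPM of Gbp2, within or near the control range. Ifi47 and Gbp7 rose by 8.83 (SE 0.252) and 5.07 (SE 0.0981), Iigp1 had a pooled ratio of 2401 (821 to 11645, 95% counting interval), and Tgtp2 was at least 327-fold higher. Gbp and Tgtp genes have near-identical neighbours, so a single value for one of them is uncertain.

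Promoters of some of these GTPase and interferon-stimulated genes are shown because the members moved together. The windows come from RefSeq promoters of build GRCm38.p6, each 250 bases before to 50 after a gene's start, written 5′ to 3′ along the gene's strand. Capitals mark matches to GAAANNGAA, a shortened core of the interferon-stimulated response element, on either strand, with overlapping matches merged. Irgm1 and Isg15 lie outside the naming rule and were added after their values were seen. Every window shown holds a match, whereas the promoter of Ifi47, another raised GTPase gene, held none and is not shown.
Igtp (chr11:58199480-58199572, plus strand): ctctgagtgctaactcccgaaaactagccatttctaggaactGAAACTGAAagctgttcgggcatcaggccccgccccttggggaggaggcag
Gbp2 (chr3:142620563-142620655, plus strand): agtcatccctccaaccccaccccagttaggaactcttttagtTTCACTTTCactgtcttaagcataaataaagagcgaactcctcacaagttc
Irgm1 (chr11:48871394-48871492, minus strand): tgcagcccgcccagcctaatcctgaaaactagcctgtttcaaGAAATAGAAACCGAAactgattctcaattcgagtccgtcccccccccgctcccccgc
Isg15 (chr4:156200834-156200938, minus strand): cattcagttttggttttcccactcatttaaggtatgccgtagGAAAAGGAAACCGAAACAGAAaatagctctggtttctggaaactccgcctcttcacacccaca
In Gbp2 the match is on the opposite strand, whereas Irgm1 and Isg15 hold overlapping matches. The mean level of Irgm1 was 102 ± 1.39 CPM (SD, n = 2) in BioNICD and 2.51 ± 0.55 CPM (SD, n = 6) in control samples, a log2 fold change of 5.34 (adjusted p = 9.21e-10, SE 0.129), and that of Isg15, a ubiquitin-like modifier, was 73.3 ± 3.94 CPM against 2.46 ± 0.486 CPM, a log2 fold change of 4.90 (adjusted p = 1.48e-09, SE 0.128).

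The motif was in 8.56% of all 32851 promoters and 7.27% of the 11098 promoters of genes tested. It was in 9 of 11 GTPase promoters (81.8%), covering 10 of 18 genes with an entry, in 14 of 26 promoters of interferon-stimulated genes (53.8%), covering 21 of 32, in 4 of 18 of MHC class I genes (22.2%), in 5 of 25 of effector genes (20%) and in 13.0% of 1418 promoters of genes at least 2-fold higher. The gamma-activated site core TTCNNNGAA, the same on both strands, was in 8.30% of all promoters in 6 of the 11 GTPase promoters (54.5%) and in 6 of 26 of interferon-stimulated genes (23.1%). TGGGAA, the core bound by RBPJ, searched on both strands, was in 25.6% of all promoters and 22.8% of those of genes tested. It was in 10 of 25 promoters of canonical Notch targets (40.0%, 20 of 27 genes with an entry) in 4 of 25 promoters of effector genes (16.0%), in 11 of 18 promoters of MHC class I genes (61.1%), in 10 of 26 promoters of interferon-stimulated genes (38.5%) and in 4 of 11 GTPase promoters (36.4%). The canonical targets with a match were Hes5, Hes7, Hey2, Ptcra and Igf1r, all under the filter, Rbpj, not called, and Cdkn1a, Tbx21 and Lfng, called higher. The promoter windows of Dtx1, Nrarp, Il2ra and Notch1 held no TGGGAA. Hes1 and Hey1 had no promoter entry. Each motif was searched independently, so matches of different motifs may overlap, and a match describes letters in a window, not binding.

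Genes of MHC class I presentation rose with them. Of 20 members 17 passed the filter, 15 were called higher and 0 lower (median 1.49). B2m, the invariant light chain of class I molecules, had 3963 and 4137 CPM in BioNICD and 764 to 987 CPM (median 822) in control samples, a log2 fold change of 2.27 (adjusted p = 2.46e-08, SE 0.0885). Nlrc5, the transactivator of class I genes, rose by 2.89 (SE 0.0646), and the immunoproteasome subunit gene Psmb10 by 2.44 (SE 0.0573). H2-T23 and the classical class I gene H2-K1 rose by 2.89 (SE 0.149) and 1.49 (SE 0.0894), with the limit that class I genes resemble each other. The chaperone gene Calr was not called, at 0.05 (adjusted p = 0.767, SE 0.124), and was lower with control replicates 1 and 2 alone, at -0.19.

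Cytokine signalling genes were raised at several levels. Among 27 cytokine receptor and JAK genes, 24 passed the filter, 14 were higher and 1 lower (median 0.51). Il2rb, the signalling beta chain of the receptors for interleukin-2 and interleukin-15, had 185 and 187 CPM against 4.46 to 8.74 CPM (median 5.52), a log2 fold change of 4.98 (adjusted p = 4.40e-09, SE 0.153). The shared gamma chain gene Il2rg rose less, by 0.85 (SE 0.0908), and the kinase gene Jak1 by 0.30 (SE 0.0507). Il21r, the interleukin-21 receptor, and Il12rb1, a chain of the interleukin-12 receptor, rose by 7.12 (SE 0.296) and 5.61 (SE 0.245), Il21r having no read in control replicates 1 and 2. All 15 STAT and SOCS genes passed, 9 were higher and 0 lower (median 0.55), against 12 higher of 14 tested (median 0.99) with control replicates 1 and 2 alone. Socs3, a feedback inhibitor of cytokine signalling, had 46.7 and 47.2 CPM against 0.0657 to 0.846 CPM (median 0.181) and rose by 7.24 (SE 0.35). The feedback genes Socs1 and Cish rose by 2.78 (SE 0.133) and 2.68 (SE 0.277), Stat3 by 1.67 (SE 0.0617) and Stat6 by 1.20 (SE 0.0443).

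Receptors of costimulation and inhibition rose in most cases tested. Of 20 members 16 passed, 11 were higher and 1 lower (median 1.46). Cd244, a SLAM-family receptor of cytotoxic cells, had 28.0 and 31.2 CPM with no control read, at least 764-fold higher. Havcr2, which encodes the inhibitory receptor Tim-3, had 13.5 and 13.1 CPM and a pooled ratio of 526 (145 to 4353, 95% counting interval), and Ctla4, a brake on costimulation, a pooled ratio of 94.8 (25.9 to 789, 95% counting interval). Cd160 rose by 5.33 (SE 0.438) and Ly9 was not called. Pdcd1, the gene of the inhibitory receptor PD-1, was the member that fell, with 129.9 and 128 CPM against 158 to 339 CPM (median 329.8) and a log2 fold change of -1.09 (adjusted p = 0.0171, SE 0.327). That call was lost without either BioNICD replicate (adjusted p = 0.101 and 0.0991), and with control replicates 1 and 2 alone the value was -0.31.

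In the TNF receptor superfamily, 13 of 17 genes passed, 11 were higher and 1 lower (median 2.30). Tnfrsf9, the costimulatory receptor 4-1BB, had 1397 and 1443 CPM in BioNICD and 176 to 221 CPM (median 195) in the controls, a log2 fold change of 2.85 (adjusted p = 2.84e-09, SE 0.0825). Cd27 and Cd40 rose by 4.56 (SE 0.223) and 4.60 (SE 0.343), Tnfrsf8, which encodes CD30, by 3.44 (SE 0.409), or 5.35 with control replicates 1 and 2 alone, and Tnfrsf1b, a TNF receptor gene, by 2.30 (SE 0.0883). Tnfrsf25 had a pooled ratio of 293 (52.2 to 11632, 95% counting interval). Of 20 NF-kB subunit and feedback genes 19 passed, 13 were higher and 0 lower (median 0.39). The atypical I-kappa-B genes Bcl3 and Nfkbiz rose by 5.26 (SE 0.133) and 2.41 (SE 0.0696), the inhibitors Nfkbie and Nfkbia by 2.18 (SE 0.137) and 1.07 (SE 0.156), and the subunit gene Nfkb1 by 0.91 (SE 0.0449).

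T cell receptor and transcription factor genes shifted in both directions. Of 26 receptor complex and proximal signalling genes 22 passed, 13 were higher and 5 lower (median 0.42, or 0.26 with control replicates 1 and 2). Cd6, an adhesion coreceptor, rose by 5.23 (SE 0.302), and the zeta chain gene Cd247 by 3.04 (SE 0.515). Themis, a T cell signalling adaptor gene, was called lower, at -0.39 (SE 0.0755). Trat1, a receptor-associated adaptor gene, had a log2 fold change of -2.61 (adjusted p = 0.00971, SE 0.7), which was not called with control replicates 1 and 2 alone (-0.64) nor without either BioNICD replicate (adjusted p = 0.0718 and 0.0775). Of 29 T cell transcription factor genes 25 passed, 16 were higher and 3 lower (median 0.38). Ets1, a factor needed for T cell development, had 71.5 and 68.1 CPM in BioNICD, 0 and 0 CPM in control replicates 1 and 2 and 1.32 to 1.77 CPM in replicates 3 to 6, a log2 fold change of 5.90 (adjusted p = 1.68e-06, SE 0.411) against all. Bcl6, the repressor that directs follicular helper cells, rose by 4.12 (SE 0.14), Id2, an inhibitor of E proteins, by 3.58 (SE 0.254), and Ikzf1, which encodes Ikaros, by 0.75 (SE 0.0618).

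Immediate early, chemokine receptor and adhesion genes included more calls higher than lower. Of 22 AP-1 and EGR genes 19 passed, 11 were higher and 2 lower (median 0.96). Egr1, an early growth response factor, rose by 3.67 (SE 0.166), the phosphatase gene Dusp2, with no read in control replicates 1 and 2, by 3.30 (SE 0.518), and the AP-1 genes Batf, Junb and Fosl2 by 3.01 (SE 0.102), 1.82 (SE 0.161) and 1.48 (SE 0.201). Batf3 had a pooled ratio of 184 (32.6 to 7318, 95% counting interval). Of 17 chemokine receptor genes 11 passed, 5 were higher and 0 lower (median 0.44). This list followed the controls used, with 8 higher and 1 lower of 12 tested (median 1.45) against replicates 1 and 2 and 8 higher and 3 lower of 11 (median 0.73) against replicates 3 to 6. The lymph node homing receptor gene Ccr7 rose by 3.62 (SE 0.369) and Ccr4 by 3.36 (SE 0.208). Ccr8 was not called, nor was Cxcr4, at -0.34 (adjusted p = 0.219, SE 0.223), which had the opposite sign with control replicates 1 and 2 alone (0.20). Of 22 integrin and adhesion genes 17 passed, 12 were higher and 3 lower (median 1.12). Itgam, the alpha M integrin chain, had 63.0 and 61.4 CPM against 0.189 to 0.755 CPM (median 0.416) and rose by 7.08 (SE 0.172). Itgax was at least 38.2-fold higher, whereas the beta chain genes Itgb7 and Itgb2 rose by 1.12 (SE 0.0774) and 0.71 (SE 0.0491).

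Genes of cell division were lower in BioNICD cells, by moderate amounts. Of 26 DNA replication and G1/S genes, all tested, 19 fell and 1 rose (median -0.68). Rrm2, the regulated subunit of ribonucleotide reductase, had 425 and 433 CPM against 861 to 1192 CPM (median 909), a log2 fold change of -1.20 (adjusted p = 7.38e-05, SE 0.144). Ccne2, a cyclin of S phase entry, fell as well, with a log2 fold change of -1.16 (SE 0.0896), and so did the helicase subunit gene Mcm7, with -0.98 (SE 0.0722). Of 26 mitotic G2/M genes, all tested, 24 fell and 0 rose (median -0.51). Top2a, which untangles chromosomes before division, had 1004 and 963 CPM against 1767 to 2116 CPM (median 1966), a log2 fold change of -0.98 (adjusted p = 3.26e-06, SE 0.0751). Ccnb1, the mitotic cyclin, had 33.8 and 33.5 CPM against 62.3 to 75.2 CPM (median 70.8), a log2 fold change of -1.04 (adjusted p = 3.07e-06, SE 0.079). Both lay below every control, as did Mki67 and Ccna2, at -0.45 (SE 0.0854) and -0.64 (SE 0.0518), and Mki67 was at -0.30 with control replicates 1 and 2 alone.

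Regulators of the cycle were mixed. Of 16 cyclin D, CDK and inhibitor genes 15 passed, 4 were higher and 6 lower (median -0.35, or -0.07 with control replicates 1 and 2). Ccnd2 rose by 0.79 (SE 0.0734) and Cdk2 was called lower, at -0.56 (SE 0.0559). The inhibitor gene Cdkn2c had a log2 fold change of -0.81 (adjusted p = 0.0401, SE 0.296), a call lost without either BioNICD replicate (adjusted p = 0.171 and 0.158), and -1.34 with control replicates 1 and 2 alone. In the Myc, Max and Mxd network 10 of 11 passed, 4 were higher and 2 lower (median 0.20). Mxd1, an antagonist of Myc, had 98.6 and 94.6 CPM in BioNICD and 11.8 to 20.2 CPM (median 12.9) in the controls, a log2 fold change of 2.73 (adjusted p = 6.42e-07, SE 0.166). Of 24 ribosome biogenesis genes, all tested, 12 fell and 0 rose (median -0.47). This count followed the controls used: 3 higher and 8 lower with replicates 1 and 2, and 0 higher and 22 lower with replicates 3 to 6. The nucleolar gene Npm1 had a log2 fold change of -0.91 (SE 0.088) and Ncl was not called.

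Cholesterol synthesis, glycolysis and stress response lists were lower as well. Of 23 cholesterol synthesis genes 22 passed, 19 fell and 0 rose (median -0.84). Msmo1, a sterol demethylation enzyme, had 189 and 193 CPM against 448 to 476 CPM (median 461), a log2 fold change of -1.26 (adjusted p = 2.54e-08, SE 0.0494). No BioNICD value of Msmo1 reached a control value, and Stard4, Lss, Sqle and Cyp51 had -1.43, -1.38, -0.73 and -0.83. Of 22 glycolysis genes 21 passed, 14 fell and 2 rose (median -0.51). Ldha, lactate dehydrogenase A, had 1228 and 1278 CPM against 2271 to 2521 CPM (median 2326), a log2 fold change of -0.91 (adjusted p = 1.41e-06, SE 0.0616). Pgam1, Pgk1, Aldoa and Pkm had -1.26, -1.04, -0.68 and -0.60, and Eno2, the neuronal enolase gene, went up with a pooled ratio of 55.7 (9.56 to 2241, 95% counting interval). Of 23 ATF4 and unfolded protein response genes 21 passed, 13 fell and 0 rose (median -0.43). Hsp90b1, the chaperone GRP94 of the endoplasmic reticulum, had 1519 and 1506 CPM against 3916 to 5596 CPM (median 4005), a log2 fold change of -1.56 (adjusted p = 4.29e-05, SE 0.173). Atf4 and its serine synthesis targets Phgdh and Psat1 had -0.67, -0.82 and -0.92, and Phgdh -0.52 with control replicates 1 and 2 alone.

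Survival and chromatin lists had medians between -0.39 and 0.16. Of 23 BCL2 family and apoptosis genes 17 passed, 7 were higher and 3 lower (median 0.09). Bmf, a BH3-only killer, rose by 1.98 (SE 0.158), Cflar, an inhibitor of caspase-8, by 1.39 (SE 0.11), Casp8 by 1.18 (SE 0.0667) and Mcl1, an anti-apoptotic member, by 0.57 (SE 0.0732). Of 19 p53 targets 14 passed, 3 were higher and 3 lower (median 0.16), Bax being lower at -0.41 (SE 0.0837). With control replicates 1 and 2, 5 p53 targets were higher and 4 lower (median 0.03), and with replicates 3 to 6, 9 and 3 (median 0.28). Of 11 histone variant genes 9 passed, 0 rose and 4 fell (median -0.39). H2afv, an H2A.Z gene, had 64.7 and 71.9 CPM against 116 to 149 CPM (median 125), a log2 fold change of -0.89 (adjusted p = 3.36e-05, SE 0.0953).

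**Figure D4:**
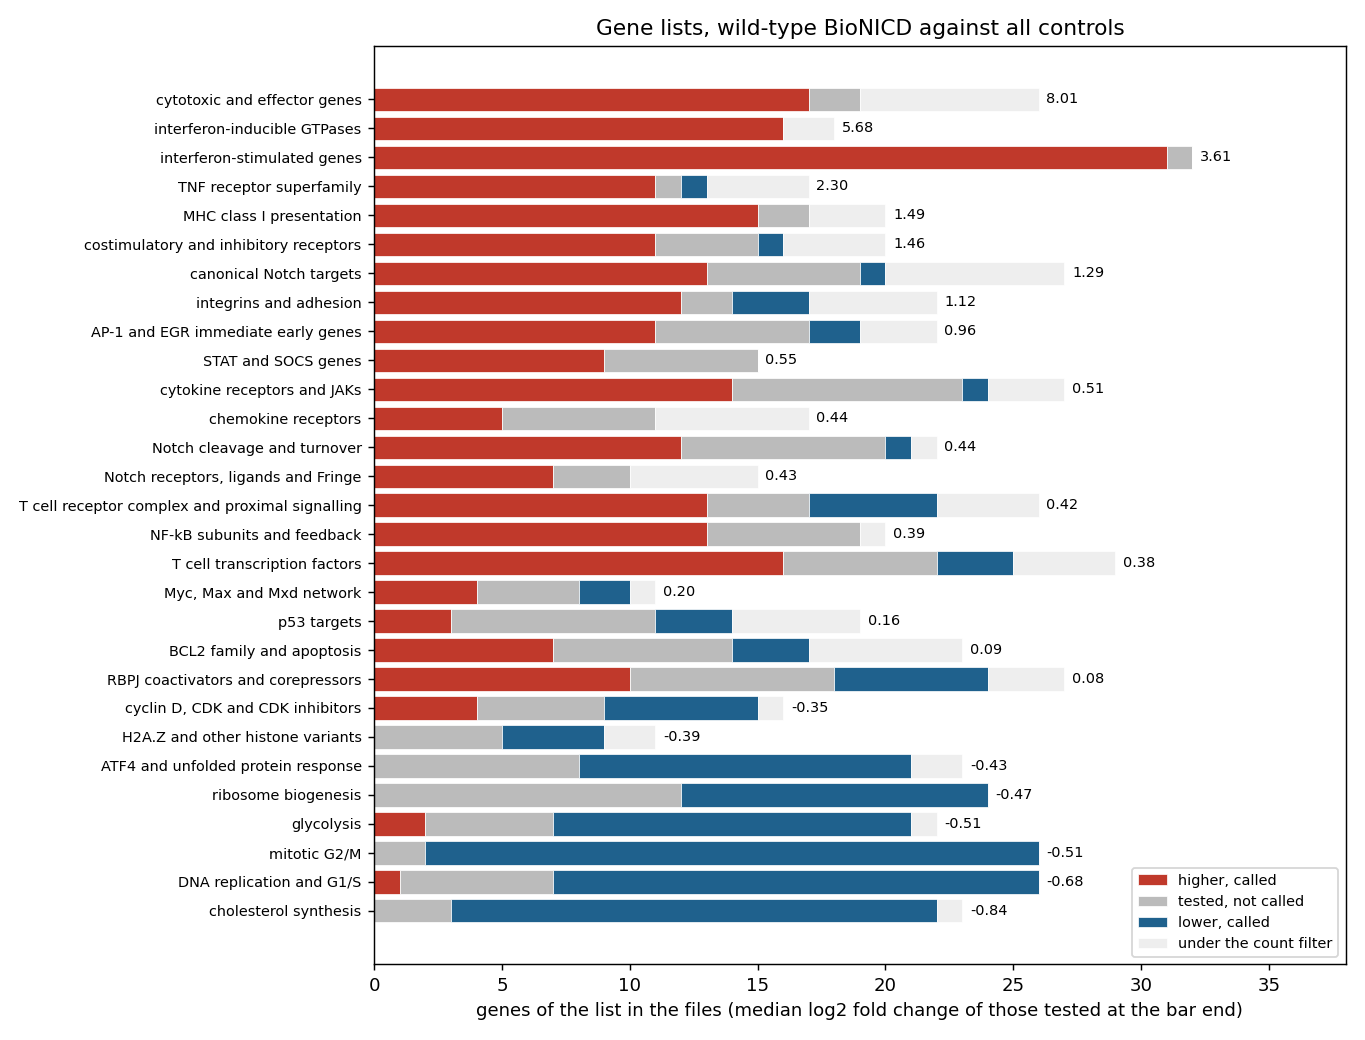
For each of 29 gene lists, the number of genes called higher, not called, called lower and under the filter in wild-type BioNICD against all 6 CRISPR controls, as stacked bars, with the median log2 fold change of the tested genes written beside each. Interferon, effector and TNF receptor lists are mostly higher, and cell cycle and cholesterol lists mostly lower.

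Markers of other cell types were read as whole lists. The 10 B cell markers summed to 240 to 243 CPM in BioNICD, 0.379 to 0.985 CPM in control and 0.611 to 0.885 CPM in DEP samples. Blk made up nearly all of that sum, being the only B cell marker above the filter, while the defining genes Cd79a, Cd79b, Pax5 and Ebf1 were at or near 0, and 3 of the 10 had no count in BioNICD and 4 none in the controls. The 10 NK cell markers summed to 34.1 to 36.4 CPM in BioNICD against 0.328 to 0.568 CPM in the controls, mostly through Cd244. Ncr1, which encodes the NK receptor NKp46, was at least 58.5-fold higher, and Klrg1 rose by 4.23 (SE 0.287), but Klrb1c and Klrd1 were near 0, and 4 of 10 had no count in BioNICD and 7 none in the controls.

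The 13 myeloid markers summed to 113 to 116 CPM against 16.3 to 37.0 CPM in controls. Spi1, the gene of the myeloid factor PU.1, had 7.72 and 7.74 CPM, at least 203-fold higher, and Itgam rose as given above, while Csf1r, Cd14, Adgre1 and Mpo were at or near 0. Lyz2, lysozyme, had a log2 fold change of -2.16 (adjusted p = 0.0469, SE 0.826), a call lost without BioNICD replicate 1 or 2 (adjusted p = 0.266 and 0.196), without control replicate 3, 4, 5 or 6 (adjusted p = 0.08, 0.0894, 0.0885 and 0.0823) and with DESeq2 (adjusted p = 0.0689). The 8 erythroid markers stayed at 2.17 to 2.61 CPM against 0.940 to 2.88 CPM. Fibroblast markers, of which Thy1 is shared with T cells, summed to 419 to 437 CPM against 549 to 800 CPM. Pdgfrb, a growth factor receptor gene, had 113 and 117 CPM against 0 to 0.282 CPM (median 0.134) and rose by 9.90 (SE 0.226), while S100a4 had -1.90 (SE 0.289). Of the 10 fibroblast markers 4 had no count in BioNICD, and the collagen genes Col1a1, Col1a2 and Col3a1 were at 9.49, 11.3 and 7.99 CPM in control replicate 1 and at 0 to 0.189 CPM in the other controls. The part of other cells in the results was not tested.

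Signs of RNA preparation also differed between groups. The 6 such genes summed to 40319 to 41041 CPM in BioNICD and 49503 to 112346 CPM in control samples. Rn45s, the ribosomal RNA precursor, had 18628 and 17806 CPM against 24951 to 71758 CPM (median 31149.6), a log2 fold change of -1.01 (adjusted p = 0.0383, SE 0.367), a call lost without either BioNICD replicate (adjusted p = 0.154 and 0.17) and with DESeq2 (adjusted p = 0.0707). Lars2, a mitochondrial leucyl-tRNA synthetase gene, had 58.6 and 63.7 CPM against 116 to 9424 CPM (median 532) and was not called, at -5.00 (adjusted p = 0.055, SE 1.99). With control replicates 1 and 2 alone both were called lower, at -0.67 and -1.35. Leaving Rn45s and Lars2 out of the table changed the sign of no named gene.

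The DEP mutant, which shares vectors and processing folder with the wild-type line, was compared for some of the same lists. In a fit of the wild-type, DEP and control samples, 5102 of 11653 genes (43.8%) differed between wild type and DEP, 2914 (25%) higher and 2188 (18.8%) lower in wild type, a split that became 2543 higher and 2740 lower under upper quartile scaling. The number called was 3263 without BioNICD replicate 1 and 3311 without DEP replicate 2. The 2 contrasts share the wild-type samples, so only the values are set side by side. The spread among the controls also entered the p-values of wild type against DEP. Against DEP, 17 of 19 effector genes were higher (median 8.08), and 30 of 32 interferon-stimulated genes (median 2.86). All 16 GTPase genes tested and 15 of 17 MHC class I genes were higher too (medians 5.05 and 1.45). Among 26 mitotic genes 19 were lower (median -0.37), and among 22 cholesterol genes 15 (median -0.41). The G1/S list was more divided against DEP, with 4 higher and 8 lower of 26 (median -0.18). Fewer glycolysis and ribosome biogenesis genes were lower against DEP than against the controls. Of 21 glycolysis genes 2 were higher and 8 lower (median -0.15), and of 24 ribosome biogenesis genes 1 and 5 (median -0.31). Of 20 canonical Notch targets, Notch1 included, 12 were higher and 4 lower (median 0.81). In single genes, the log2 difference wild type minus DEP was 8.08 for Gzmb, 7.64 for Rtp4 and 4.85 for Igtp.

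The 24 h induction of NICD-ER by 4-OHT is the other gain of active NICD in the series and shares no sample with the main comparison. There, 1341 of the 12021 genes tested in the 12-sample fit (11.2%) were called, 828 (6.89%) higher and 513 (4.27%) lower with 4-OHT than with EtOH. That fit includes all 6 controls, so the spread among them entered the p-values of 4-OHT against EtOH. Tcf7, whose controls differed by set, had 406 and 396 CPM with EtOH and 652 and 655 CPM with 4-OHT. It was not called (adjusted p = 0.164). The number called in the NICD-ER samples alone was not tested. Of the 1480 genes at least 2-fold higher in BioNICD, 367 were called higher with 4-OHT, which is 24.8% of these and 45.1% of the 813 called higher with 4-OHT among the shared genes, and 30 were called lower. Of the 307 at least 2-fold lower, 56 were called lower with 4-OHT, which is 18.2% of these and 11% of 508, and 4 were called higher. The difference between both effects was called for 4808 genes (40%), with the BioNICD effect the higher for 2485 (20.7%) and the lower for 2323 (19.3%).

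Some targets of Notch rose in both settings, among them Dtx1, Hey1, Hes1 and Nrarp. With 4-OHT, 7 of 20 canonical Notch targets tested were higher and 2 lower (median 0.22, against -0.002 over all genes tested). Dtx4, Gimap5, Bhlhe40, Cdkn1a and Lfng, higher in BioNICD cells, were not called with 4-OHT. Dtx1 had 29.4 and 27.3 CPM with EtOH and 361 and 365 CPM with 4-OHT, a log2 fold change of 3.68 (adjusted p = 2.14e-09, SE 0.126), and the BioNICD effect exceeded it by 9.08 (adjusted p = 8.99e-11, SE 0.223). Hey1 had 0.388 and 0.621 CPM and 42.5 and 48.3 CPM, and its BioNICD effect was larger by 5.20 (adjusted p = 8.15e-06, SE 0.507). Hes1 had 24.5 and 27.3 CPM and 80.1 and 83.0 CPM, with a difference of effects of 3.84 (adjusted p = 5.68e-05, SE 0.477). For Dtx1, Hey1 and Hes1 the ethanol samples already lay above every CRISPR control, so the starting levels of both contrasts differed. Nrarp had 3.32 and 4.28 CPM with 4-OHT, and its difference of effects, 0.72 (adjusted p = 0.546, SE 0.789), was not called.

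Interferon and division genes differed between the long-term and the 24 h setting. With 4-OHT 0 of 16 GTPase genes were called by edgeR in either direction, with 4 higher and 0 lower at an unadjusted p under 0.05 (median 0.22). At that unadjusted threshold, 1580 of all 12021 genes tested were higher with 4-OHT and 1250 lower. The difference of effects was called for all 16 GTPase genes (median 5.37). Igtp had 12.6 and 11.9 CPM with EtOH and 11.8 and 12.5 CPM with 4-OHT, and its effects differed by 5.08 (adjusted p = 7.37e-10, SE 0.167). Of 32 interferon-stimulated genes 10 were higher with 4-OHT (median 0.45), and for 31 the BioNICD effect was the larger (median difference 2.96). Among 26 mitotic genes 13 were higher and 0 lower with 4-OHT, opposite in direction to BioNICD, and the difference was called lower for all 26 (median -0.77). For G1/S genes, 5 were higher and 0 lower with 4-OHT, and 22 of 26 differed (median -0.83). Of 19 effector genes 5 were higher and 0 lower with 4-OHT (median 0.04), with 7 higher and 1 lower at an unadjusted p under 0.05. Prf1 had no read with EtOH and 0.815 and 0.636 CPM with 4-OHT, a change called higher (adjusted p = 3.15e-05). Il10 likewise had no read with EtOH and 1.60 and 1.59 CPM with 4-OHT (adjusted p = 1.08e-04). Ifng had 0.259 and 0.372 CPM with EtOH and 0.478 and 0.66 CPM with 4-OHT and was not called, and Gzmb had 125 and 122 CPM and 248 and 265 CPM. Their 4-OHT levels lay below the BioNICD samples for these 4 genes.

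**Figure D5:**
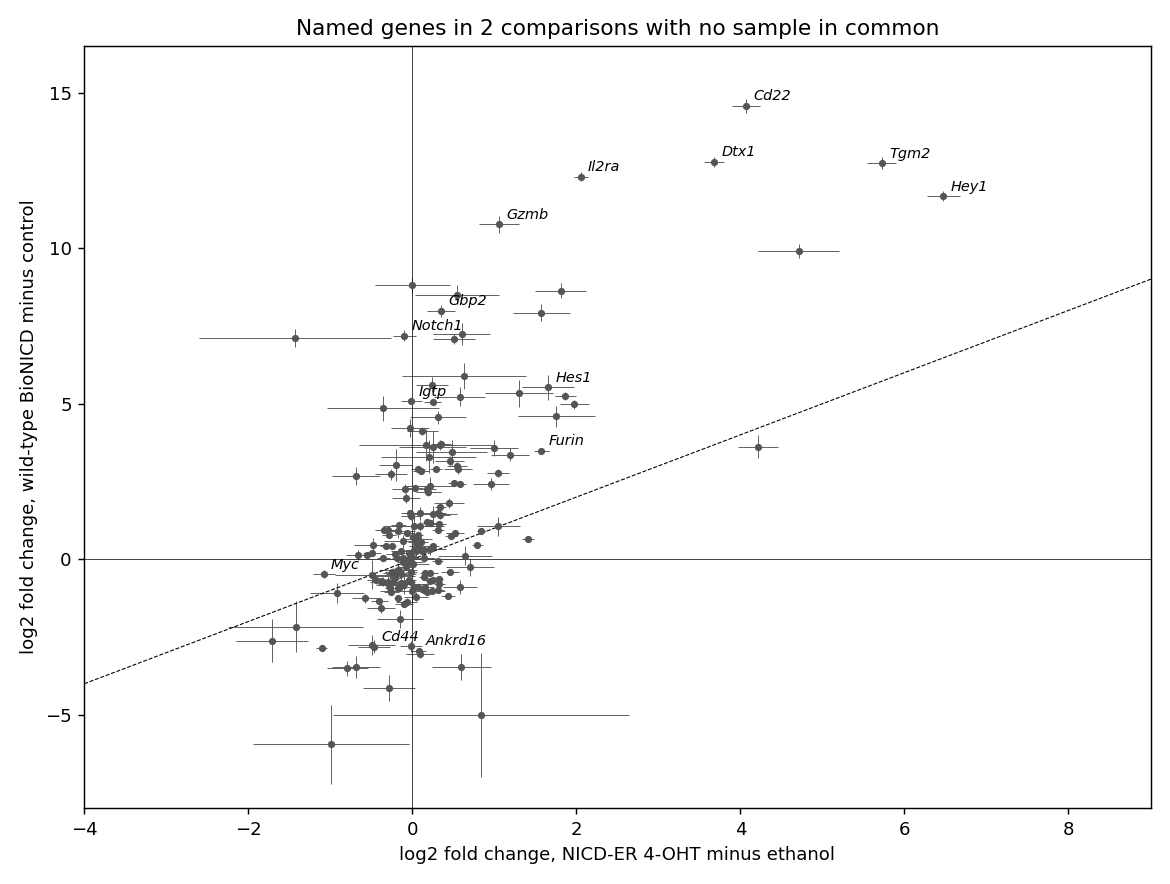
Log2 fold change of wild-type BioNICD minus CRISPR control (y) against 4-OHT minus EtOH in NICD-ER cells (x) for the 190 named genes tested in both that had more than 3 reads in each group of the former, with bars of 1 SE and the dashed line of equal effects. Dtx1, Hey1 and Hes1 are raised in both, while Igtp, at 5.09 on the y axis, lies near 0 on the x axis.

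By chromosome, the median log2 fold change was 0.18 over 401 genes on chromosome 12, where 42.9% were higher and 13.7% lower, and -0.17 over 355 genes on the X chromosome, where 14.4% were higher and 40.8% lower. Chromosome 18 had a median of 0.11, and each of the others lay within 0.1 of zero. With control replicates 1 and 2 alone the medians were 0.27 for chromosome 12 and -0.19 for the X chromosome.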

How the data were processed

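RNA was measured by sequencing of rRNA-depleted total RNA from a stranded library kit, per the labels' protocols. The deposited values are raw counts per gene that the authors made with featureCounts 1.5.0 on a UCSC mm9 annotation, per the file headers, which set no strand option, so overlapping and antisense genes cannot be told apart. FastQC, Trimmomatic, STAR and DESeq2 are named in the submitters' processing notes.

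From these counts, samples were grouped by title and plasmid, and genes were filtered with filterByExpr, scaled with TMM and fitted in edgeR 4.0.16 (R 4.3.3, quasi-likelihood), with Benjamini-Hochberg adjustment over all genes tested and no covariate. CPM were scaled over all 20 samples. The standard error is the log2 fold change divided by the square root of F. The coefficient of biological variation was 10.8% against all controls, with 6 residual degrees of freedom. Total counts per sample were 10704131 or more. Folds against a group with no read used a floor of 3 reads over that group, and 1 to 3 reads a ratio of pooled counts with a 95% interval, both of which cover counting error only.

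Alternatives were control subsets, the set of control samples as a covariate, a replicate block, upper quartile scaling, DESeq2 1.42.0, no filter, thinning to the smallest total, all 20 samples, removal of Rn45s and Lars2, and leaving out each library. The procedure was tested on simulated data. The simulation changed few genes, as many up as down, with a common spread and no control sets. It therefore did not test scaling or error rates where most genes are called. The members and gene lists were chosen with earlier results of these data known. Named were Dtx1, Hey1 and all canonical Notch targets; the 12 highest and 12 lowest log2 fold changes among genes called the same way against all controls and against replicates 1 and 2, without overlap and with a mean of at least 5 CPM in the higher group; up to 4 called members with the largest change and up to 2 more of high level of each other list; and Notch1, Rbpj, Maml1, Maml2, Maml3 and the markers with a count. Promoters were read from RefSeq tables of GRCm38.p6, gene positions from the deposited mm9 coordinates; no mm9 genome sequence was used. Some named genes are not reported here. H2A.Z guide samples entered only the scaling and the fit of all 20 samples.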

Additional observations from a re-analysis of the deposited data

Results flagged for a closer look

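Among 184 named genes checked in the 6 controls by Dixon's test at the 95% level, 11 had 1 control apart from the other 5. For independent values from a single group the test gives about 1 such case in 20. The controls were of different sets, and genes of the same library are not independent. That share therefore does not tell whether any of the 11 arose by chance. The test weighs a gap against the spread of the 6 values, so a control can be apart by a small difference in level. Clec2f was at 29.3 CPM in control replicate 1 and at 34.9 to 36.8 CPM in the others. Psat1 was at 526 CPM in control replicate 1 and 544 to 553 CPM in the others. Rn45s was at 71758 CPM in control replicate 6 against 24951 to 33658 CPM, and Lars2 at 9424 CPM in the same library against 116 to 971 CPM. Rpph1, the RNA of ribonuclease P, was at 8897 CPM in control replicate 2 against 11910 to 13553 CPM.

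The other 6 were fibroblast markers and all came from control replicate 1: Col1a1 at 9.49 CPM, Col1a2 at 11.3 CPM, Col3a1 at 7.99 CPM, Pdgfra at 2.16 CPM, Dcn at 3.95 CPM and Fn1 at 5.92 CPM. In the other 5 controls these genes were at 0 to 0.189 CPM. In the BioNICD samples Col1a2 and Col3a1 had no count. Without control replicate 1, 7014 genes were called against the remaining controls, the highest number among the settings that left out a single library. The part of these markers in any result was not tested.

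The BioNICD effect and the 4-OHT effect differed by the test of that difference for 4808 genes, among them Dtx1, Igtp and all 26 mitotic genes listed.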

How the results depend on the processing

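Called genes against all controls numbered 4582 to 8624 over all settings, 6688 with DESeq2, 6674 with upper quartile scaling, 7612 with the set of control samples as a covariate, 6042 after thinning all libraries to the smallest total, and 4582 to 7014 without single libraries. Without single libraries the repeat with control replicates 1 and 2 gave 5675 to 7314, and the difference from the 4-OHT effect 3473 to 5508. For wild type against DEP the range was 3263 to 3534, lowest at 3263 without BioNICD replicate 1 and 3311 without DEP replicate 2, each of which leaves a single sample assumed to vary like the other groups. Same-numbered samples of wild-type BioNICD and control did not deviate together (r = -0.0165 across 11447 genes, which are not independent replicates). Pairing with DEP or NICD-ER samples was not tested. With a replicate block 7872 genes were called against control replicates 1 and 2, where 7666 were called without it. The block gave 6820 for the difference from 4-OHT and 7941 for wild type against DEP. The block fits also left out the other controls, so these last numbers do not show the part of the block alone.

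Over 218 named genes tested, 3766 of the recomputed values kept direction and call, 46 gained and 85 lost the call, and 16 changed sign, in 6 genes. With control replicates 1 and 2 only, the set as a covariate, and the replicate block, the log2 fold change was 0.43, 0.42 and 0.42 for Tcf7, 0.84, 0.84 and 0.84 for Bcl2, 0.20, 0.19 and 0.19 for Cxcr4, -0.19, -0.19 and -0.19 for Calr, and 0.18, 0.18 and 0.18 for Mga. These settings all set BioNICD against control replicates 1 and 2. The block was fitted with those controls only, and the covariate took up the difference of the other controls. Their near-equal values are therefore not independent checks. Lyz2 gave 1.67 with the set as a covariate. The cause was not tested. Depth limits genes with few control reads, whose folds are bounds or intervals.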
